A study of Mus musculus with 12 samples.

Results

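The TGF-β and SMAD pathway is represented here by 10 genes, chosen by name for their place in the pathway, out of 21000 protein-coding genes with curated mouse transcripts. They are the ligand gene Tgfb1, the receptor genes Tgfbr1, Tgfbr2 and Tgfbr3, the receptor-activated SMAD genes Smad2 and Smad3, the common SMAD gene Smad4, the inhibitory SMAD gene Smad7, and the co-repressor genes Ski and Skil. A BATF peak was counted at a gene when its summit lay in the gene body or within 50 kb of it in the mm10 genome. Peaks were found at 5 of the 10 genes, beside 29.2% of all coding genes, and numbered 7 in all. Of the 7, 0 overlapped a peak of another library, and over the whole lists of the 2 libraries they came from such overlap was also uncommon, at 10.9% of peaks in Th9 library 1 and 6.08% in Th17 library 3.

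The study mapped BATF by ChIP-seq in mouse helper T cells grown as Th9 or Th17 cells, with 2 BATF libraries for each cell type and matching input and IgG libraries. Both groups started from wild-type C57BL/6 naive CD4+CD62L+ T cells of spleen and lymph nodes, from mice of both sexes aged 8 to 16 weeks, stimulated through CD3 and CD28 and harvested on day 5 without restimulation. Th9 medium contained IL-2, IL-4, TGF-β1 and an antibody to IFNγ. Th17 medium contained IL-1β, IL-6, IL-23 and TGF-β1, with antibodies to IL-2, IL-4 and IFNγ. Both cell types therefore received TGF-β1, at 2 ng/ml, and no group without this cytokine was analysed here. Nothing in the sources used here says whether the 2 libraries of a cell type came from separate animals or cultures, so their spread may be technical. Libraries 1 and 2 are Th9, and libraries 3 and 4 are Th17.

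TGF-β1 is secreted in a latent complex and, once released, brings together type II and type I receptor kinases. The type I kinase phosphorylates Smad2 and Smad3, which join Smad4, enter the nucleus and bind DNA beside other factors, while Smad7, Ski and Skil restrain the signal. In naive CD4+ T cells TGF-β with IL-4 favours Th9 cells and TGF-β with IL-6 favours Th17 cells. BATF is an AP-1 family protein that pairs with JUN proteins on AP-1 sites and with IRF4 on composite sites, and it is needed for both of these lineages.

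The libraries differed widely in how many peaks were called. The main list, with peaks called against input plus IgG, held 1709 peaks in library 1, 241 in library 2, 4111 in library 3 and 199 in library 4. The larger Th9 list was 7.09 times the smaller, and the larger Th17 list 20.7 times the smaller. All 7 peaks at the pathway genes came from the larger list of their cell type, 4 from library 1 and 3 from library 3. Libraries 2 and 4 had 0 at any of the 10 genes. Counts below are from these main lists unless a list with 1 control is named. Sequencing gave roughly 15000000 reads for each library. The peak lists carry no read counts, so how the libraries differed in depth is not known, and a site with no peak is one below that library's threshold and not one shown to be unbound.

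The sequences below are the 201 bases centred on the summit of the 5 peaks at Tgfb1, Tgfbr2, Smad3 and Skil, shown because they are the stretches searched for motifs. An AP-1 site is present in 4 of these 5. The windows of the 2 Smad2 peaks were searched in the same way, 1 of them with an AP-1 site, and are not printed. They are the plus strand of the RefSeq reference genome, build mm10, with each AP-1 match (TGAGTCA, or TGACTCA on the other strand) in capitals. The 5 windows are, in order, chr7:25647409-25647609, chr7:25710884-25711084, chr9:116136915-116137115, chr9:63706478-63706678 and chr3:31061291-31061491.
Tgfb1 upstream, Th17 library 3: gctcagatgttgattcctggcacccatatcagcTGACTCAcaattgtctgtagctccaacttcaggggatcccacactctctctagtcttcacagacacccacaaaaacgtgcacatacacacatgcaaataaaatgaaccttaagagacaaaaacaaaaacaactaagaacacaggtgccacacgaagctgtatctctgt
Tgfb1 downstream, Th17 library 3: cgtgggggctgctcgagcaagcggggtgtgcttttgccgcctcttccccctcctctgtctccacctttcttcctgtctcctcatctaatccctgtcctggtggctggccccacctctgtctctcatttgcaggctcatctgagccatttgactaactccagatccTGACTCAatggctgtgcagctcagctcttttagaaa
Tgfbr2 intron, Th9 library 1: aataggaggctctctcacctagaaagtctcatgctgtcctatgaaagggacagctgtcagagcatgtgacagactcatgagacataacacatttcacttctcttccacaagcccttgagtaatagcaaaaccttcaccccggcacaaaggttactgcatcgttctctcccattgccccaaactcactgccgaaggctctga
Smad3 intron, Th9 library 1: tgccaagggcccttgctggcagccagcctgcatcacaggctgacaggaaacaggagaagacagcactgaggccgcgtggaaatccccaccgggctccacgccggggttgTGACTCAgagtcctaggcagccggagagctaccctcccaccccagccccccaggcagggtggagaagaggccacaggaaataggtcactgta
Skil upstream, Th9 library 1: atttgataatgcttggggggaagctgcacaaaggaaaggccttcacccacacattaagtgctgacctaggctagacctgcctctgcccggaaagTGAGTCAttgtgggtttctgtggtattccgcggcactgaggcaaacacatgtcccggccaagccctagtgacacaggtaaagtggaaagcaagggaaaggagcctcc

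Tgfb1 encodes the TGF-β1 ligand itself. It had 0 peaks in both Th9 libraries, 2 in Th17 library 3 and 0 in Th17 library 4, so the call at the ligand gene rests on 1 library. The upstream peak, at chr7:25647445-25647617, lay 39.5 kb before the gene, within an intron of Bckdha, and the nearest start site was that of Bckdha. Its fold enrichment over the control was 5.35 and its −log10 q 3.90. The downstream peak, at chr7:25710930-25711107, lay 5.91 kb past the end of Tgfb1 between genes, with the start site of Ccdc97 nearest. It was enriched 4.57-fold, and its −log10 q was 3.03. The summits were 63.5 kb apart, and both had an AP-1 site well off the summit, its centre at 64 bp in the upstream peak and at 68 bp in the downstream one. The upstream window also held 2 matches to the SMAD-type motif CAGACA, and the downstream window 1 match to the ETS-type motif AGGAAG. The upstream peak was called against each control alone as well. The downstream peak was called against input alone but not against IgG alone.

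Among the receptors, Tgfbr2 had a peak and Tgfbr1 and Tgfbr3 did not. Tgfbr2 encodes the type II receptor, the kinase that binds the ligand first, and it had 1 peak in Th9 library 1 and 0 in libraries 2, 3 and 4. The peak, at chr9:116136894-116137062, lay in intron 2, 38.4 kb into the gene, and was called in all 3 lists of its library. Its fold enrichment was 5.03 and its −log10 q 3.15, and no AP-1 site lay within 100 bp of its summit. This was the 1 peak among the 7 with no repeat-masked base, at 0.0% of its length. Tgfbr1 encodes the type I receptor kinase that phosphorylates Smad2 and Smad3, and it had 0 peaks in the 4 main lists. In Th17 library 4, the list called against IgG alone placed a peak at chr4:47314057-47314254, 39.1 kb upstream of Tgfbr1, enriched 5.02-fold at a −log10 q of 2.83, rank 178 of 195 in that list, and with 1 AP-1 site within 100 bp of its summit. Tgfbr3 encodes betaglycan, a co-receptor that presents ligand. It had 0 peaks in any list, and its window was the longest of the 10 at 283.1 kb. Over the windows of all coding genes, the main lists of the 4 libraries together held 2.71 peaks per Mb. At that density, 0 in a window of this length says little.

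Smad3 encodes a receptor-activated SMAD that contacts DNA directly. It had 1 peak in Th9 library 1, at chr9:63706553-63706745, and 0 in libraries 2, 3 and 4. The peak lay in intron 1, 51.4 kb from the start site, with 6.04-fold enrichment and −log10 q 4.60. Its AP-1 site was centred 12 bp from the summit. It was called against input alone and not against IgG alone. In Th17 library 4, the list called against input alone had a further peak at chr9:63738441-63738634, also in intron 1 and 19.5 kb from the start site, with a fold enrichment of 5.89, a −log10 q of 3.74 and no AP-1 site. The Th9 and Th17 sites in Smad3 did not overlap, and the Th17 site was absent from the list with both controls.

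Of the co-repressors, which bind SMAD complexes and dampen transcription, Skil had 1 peak in Th9 library 1 and 0 in libraries 2, 3 and 4, and Ski had 0 in any list. The Skil peak, at chr3:31061312-31061675, was the widest of the 7 at 364 bp and lay 33.7 kb upstream of the gene, outside any gene with a curated transcript. The nearest start site was that of the microRNA gene Mir7008, at 22.4 kb. The AP-1 site lay nearest to the summit of all 7 peaks, 3 bp away, and the RUNX motif TGTGGT occurred once in the same window. The peak was called in all 3 lists of its library. Its fold enrichment of 6.04 and −log10 q of 4.60 equalled those of the Smad3 peak. The scale moves in steps, and 142 of the 1709 peaks of library 1 had this same fold enrichment.

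Smad2, which encodes the other receptor-activated SMAD, was the 1 member with a peak in both cell types, 1 in library 1 (Th9) and 1 in library 3 (Th17), with 0 in libraries 2 and 4. The Th17 peak, at chr18:76223544-76223730, lay 18.1 kb upstream of the gene, enriched 5.65-fold at a −log10 q of 4.12. The Th9 peak, at chr18:76255323-76255488, lay in intron 1, 13.7 kb past the first start site and at −5.69 kb from the next annotated start site, where a negative distance is upstream. It had the highest values of the 7, 6.54-fold enrichment and −log10 q 5.46. The summits were 31.8 kb apart, so a peak in both cell types at Smad2 is not a shared site. The Th17 peak had an AP-1 site centred 11 bp from the summit and the Th9 peak had none. The controls also differed. The Th17 peak was called against input alone and not against IgG alone, and the Th9 peak against IgG alone and not against input alone.

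Smad4, which encodes the shared partner of the activated SMADs, and Smad7, which encodes the inhibitor that directs ubiquitin ligases to the receptor and is itself a transcriptional target of the pathway, had 0 peaks in every library and list. With Tgfbr3 and Ski they make 4 of the 10 genes with none in any of the 3 kinds of list. Having none was the common case over all coding genes. Of these, 29.2% had a peak in the main lists, 28.4% against input alone and 24.8% against IgG alone. In the main lists, the nearest peaks outside their windows lay 87.2 kb from Smad4 (library 1), 99.7 kb from Tgfbr3 (library 3), 166.7 kb from Smad7 (library 3) and 187.1 kb from Ski (library 3), and for Tgfbr1 the distance was 238 kb (library 1). The peak nearest beyond the 50 kb limit at any member was 62.9 kb from Smad3, in Th17 library 4, and the one nearest to the limit from inside was the upstream Tgfb1 peak at 39.5 kb.

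**Figure D1:**
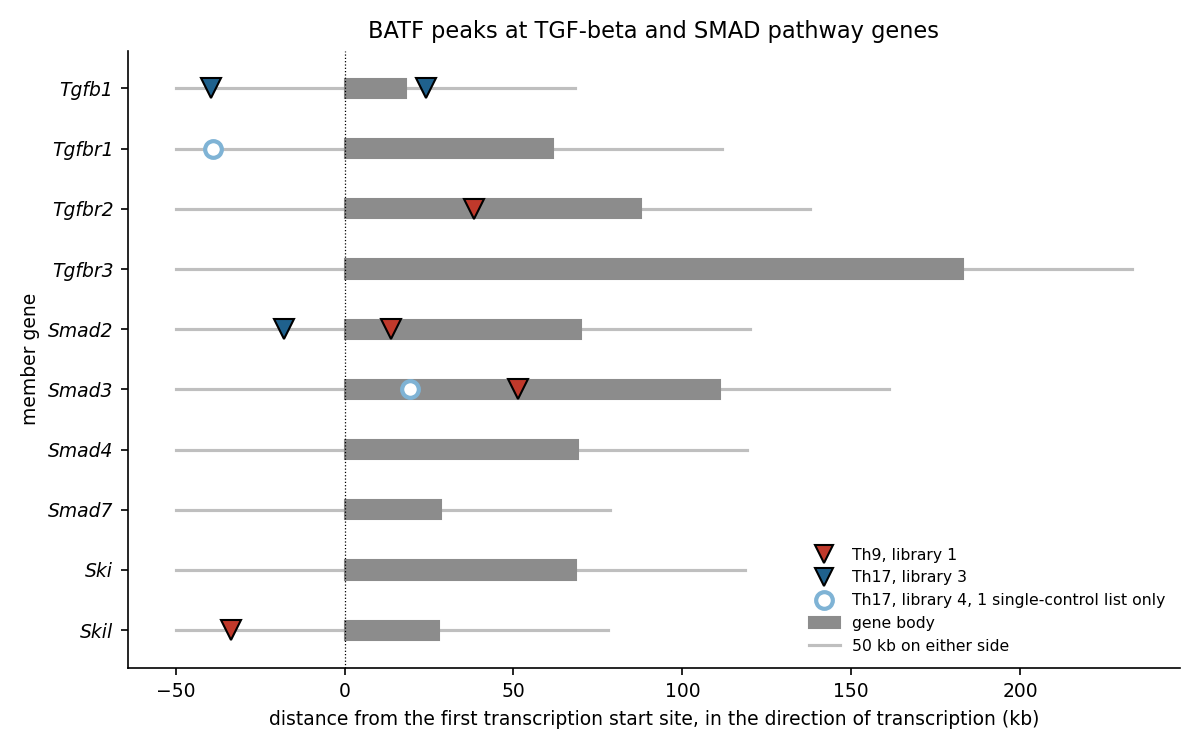
Positions of BATF peak summits at the 10 genes, in kb from the first transcription start site in the direction of transcription, with the gene body as a grey bar and the 50 kb on either side as a line. Filled triangles are the 7 peaks called against input and IgG together, 4 in Th9 library 1 and 3 in Th17 library 3, and open circles are the 2 peaks of Th17 library 4 found in 1 single-control list only.

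By position, 3 of the 7 summits were in introns of a member gene and 4 were outside the gene, and 0 were in an exon or in a promoter, taken as 1000 bp before to 100 bp after any annotated start site. These site counts stand without a share over all peaks and only describe the 7. A member's own start site was the nearest for 4 of the 7. Called against input alone, 6 of the 7 remained, against IgG alone 4 remained, and 3 were in all 3 lists (the upstream Tgfb1 peak and those at Tgfbr2 and Skil). The whole lists were also shorter with 1 control. Library 1 had 1517 peaks against input alone and 1501 against IgG alone, beside 1709. Library 3 had 4024 and 3322, beside 4111. These are list sizes, and the share of all peaks that remained is not given here. The share of repeat-masked bases ranged from 0.0% to 52.4%, the highest at the Th17 peak of Smad2. GC content within 100 bp of the summit ranged from 34.8% at the Th9 peak of Smad2 to 63.7% at Smad3, beside medians of 40.8% in library 1 and 41.8% in library 3.

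In Th9, 4 of the 10 genes had a peak, beside 10.6% of all coding genes. In Th17 it was 2 of 10, beside 22.5%. A peak in both cell types was found at 1 of 10, beside 3.89%, and in either at 5 of 10, beside 29.2%. By library, the genes with a peak numbered 4 in library 1 (9.44% of coding genes), 0 in library 2 (1.74%), 2 in library 3 (22.2%) and 0 in library 4 (1.23%). The Th17 share was thus near the background, and at the background rates of libraries 2 and 4 a count of 0 among 10 genes says little. In the lists called against input alone 5 of 10 had a peak in either cell type (28.4% of coding genes), and in those called against IgG alone also 5 of 10 (24.8%). At a −log10 q of at least 5, 1 of 10 remained in Th9 (3.95%) and 0 of 10 in Th17 (11.4%). These counts come with no test, since the genes were chosen with results of these data known.

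Long genes have long windows, and the pathway genes are long, with a median body of 68.7 kb against 16.7 kb over all coding genes. Counted per length, the member windows held 2.32 Th9 peaks per Mb, against 0.844 per Mb over the windows of all coding genes, and 1.74 Th17 peaks per Mb against 1.86. The Th9 figure rests on 4 peaks in 1.73 Mb, and without library 1 it would be 0.

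**Figure D2:**
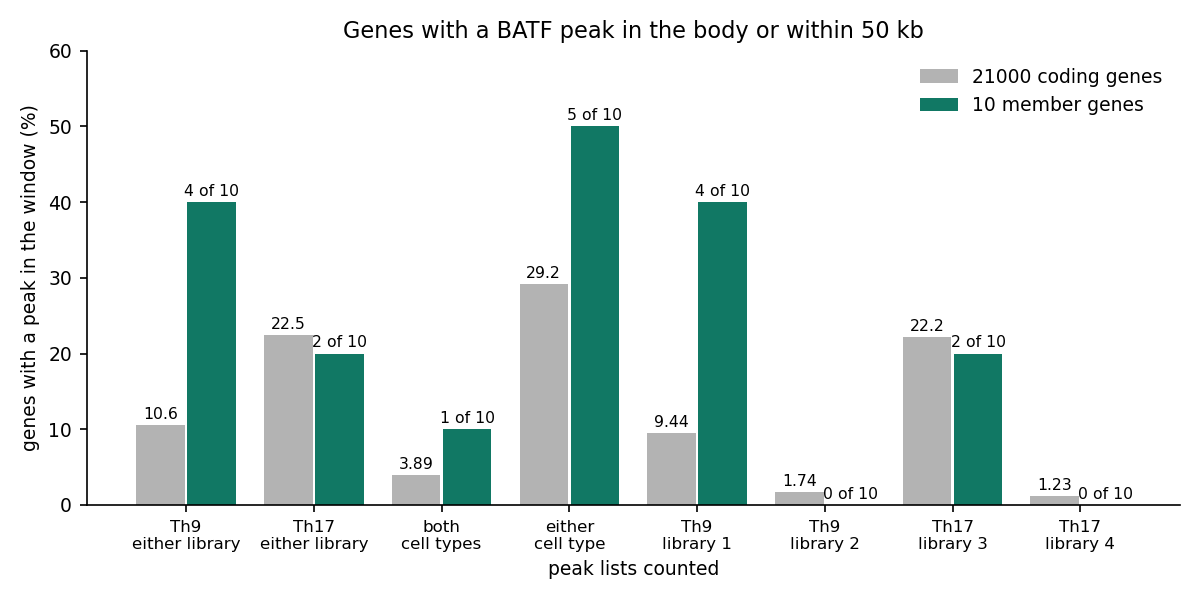
Percentage of genes with a BATF peak in the gene body or within 50 kb, for all 21000 coding genes (grey) and the 10 pathway genes (green, with counts), by cell type and by library. The members stand above the coding genes in Th9 (4 of 10 beside 10.6%) and close to them in Th17 (2 of 10 beside 22.5%), and libraries 2 and 4 contribute 0.

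Between cell types, the peaks per library were 4 and 0 in Th9 and 3 and 0 in Th17, a mean of 2.0 against 1.5. The 2 groups overlapped, and the difference (Th17 minus Th9) of −0.5 peaks per library gave p = 1.0 in an exact two-sided permutation test over libraries. With 2 libraries against 2, the smallest p this test allows is 0.333. Without library 1 the difference was 1.5, and without library 4 it was 1.0, so its sign is not fixed by these libraries.

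The 7 peaks sat in the body of their libraries' lists and not at the top. Their fold enrichment ranged from 4.57 to 6.54, with library medians of 5.54 (library 1) and 5.65 (library 3). By −log10 q, the Th9 peak of Smad2 was at percentile 74.3 of library 1, those at Smad3 and Skil at 63.5 and that at Tgfbr2 at 28.8. In library 3 the Smad2 peak was at percentile 49.3 and the Tgfb1 peaks at 42.6 and 23.4. Only the Th9 peak of Smad2 exceeded a −log10 q of 5, and 30.4% of the peaks of library 1 and 41.7% of those of library 3 did so. Overlap with another library, seen for 0 of the 7, differed with peak strength over the whole lists. Below a −log10 q of 5, 3.61% of the library 1 peaks and 0.751% of the library 3 peaks overlapped a peak of another library, against 27.7% and 13.5% at or above it.

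**Figure D3:**
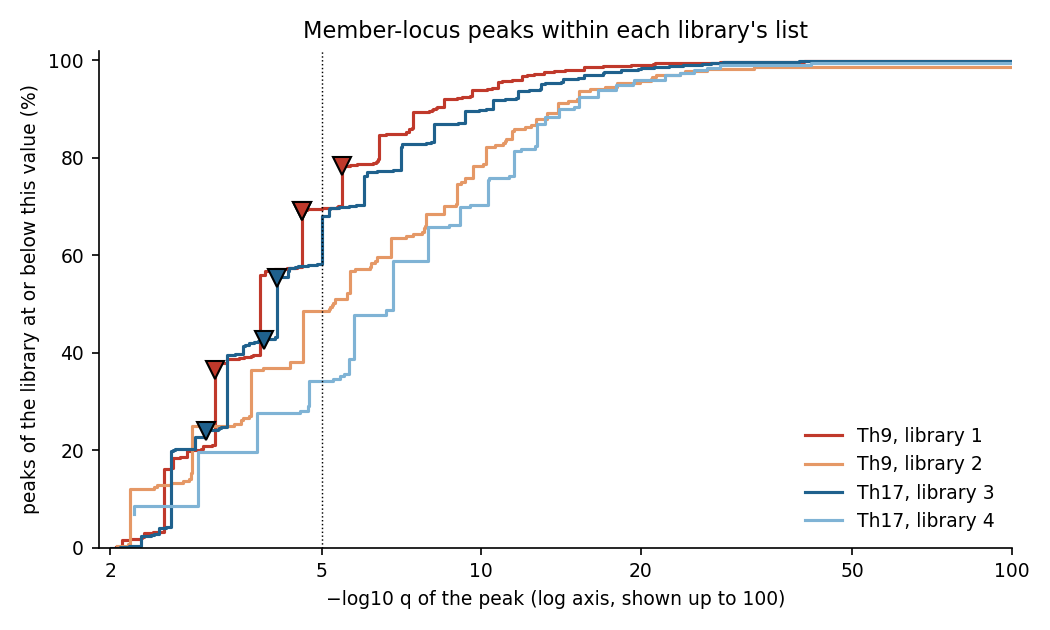
Cumulative percentage of each library's peaks at or below a given −log10 q (log axis, shown up to 100), with the 7 pathway gene peaks as triangles on the curve of their library and a dotted line at 5. The triangles lie between 3.03 and 5.46, those of Smad3 and Skil coincide at 4.60, and 1 lies beyond the dotted line.

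AP-1 sites were the feature most of the peaks had in common. TGAGTCA or TGACTCA was present within 100 bp of the summit in 5 of 7 regions, 71.4% (exact 95% binomial interval 29.0% to 96.3%). Over all 5873 merged regions of the 4 libraries the share was 17.2% (16.2% to 18.2%), and over equally long flanks, 2000 bp away on either side, it was 3.41% (3.09% to 3.76%). All 5 of these regions had a −log10 q below 5, and among regions of that strength in all libraries 8.66% held the motif. By library, 2 of 4 peaks of library 1 and 3 of 3 of library 3 had the motif, beside 14.9% and 18.8% of all peaks in those libraries. Within 50 bp of the summit it was 3 of 7 (at Smad2 in Th17, Smad3 and Skil), beside 13.5% of all peaks. The interval is wide because there are 7 regions, and no test was made.

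Each of the other motifs was found in 0 or 1 of the 7 regions. STAT motifs (TTCNNNGAA) were in 0 of 7, beside 8.97% of all regions, the CRE-type motif TGACGTCA in 0 of 7, beside 0.238%, and the SMAD palindrome GTCTAGAC in 0 of 7, beside 0.153%. The composite of GAAA directly before TGANTCA was in 0 of 7, beside 0.971%, and TTTC placed 4 bases before TGANTNA in 0 of 7, beside 1.5%. A count of 0 of 7 allows a share of up to 41.0% by the exact interval. The SMAD-type motif CAGACA was in 1 of 7, beside 17.2% of all regions, the ETS-type motif AGGAAG in 1 of 7, beside 23.6%, and the RUNX motif TGTGGT in 1 of 7, beside 17.8%. A count of 1 of 7 is 14.3%, with an exact interval of 0.361% to 57.9% that holds all of these shares. CAGACA was as frequent in the flanks, at 17.4%. All motifs were searched on both strands, the composites contain TGANTCA or TGANTNA and so can overlap an AP-1 match, and a match is a string of letters and not evidence that a factor binds.

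AP-1 letters also occurred at the genes without a peak. The 10 windows held 348 AP-1 matches, from 19 at Tgfb1 to 60 at Tgfbr3, or 20.17 per 100 kb, beside 17.03 per 100 kb over the windows of all coding genes. Of the 348, 5 (1.44%) were within 100 bp of a summit, beside 0.361% over the windows of all coding genes. Tgfbr1, Tgfbr3, Smad4, Smad7 and Ski had 35, 60, 31, 23 and 26 matches in their windows and no peak called against both controls.

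**Figure D4:**
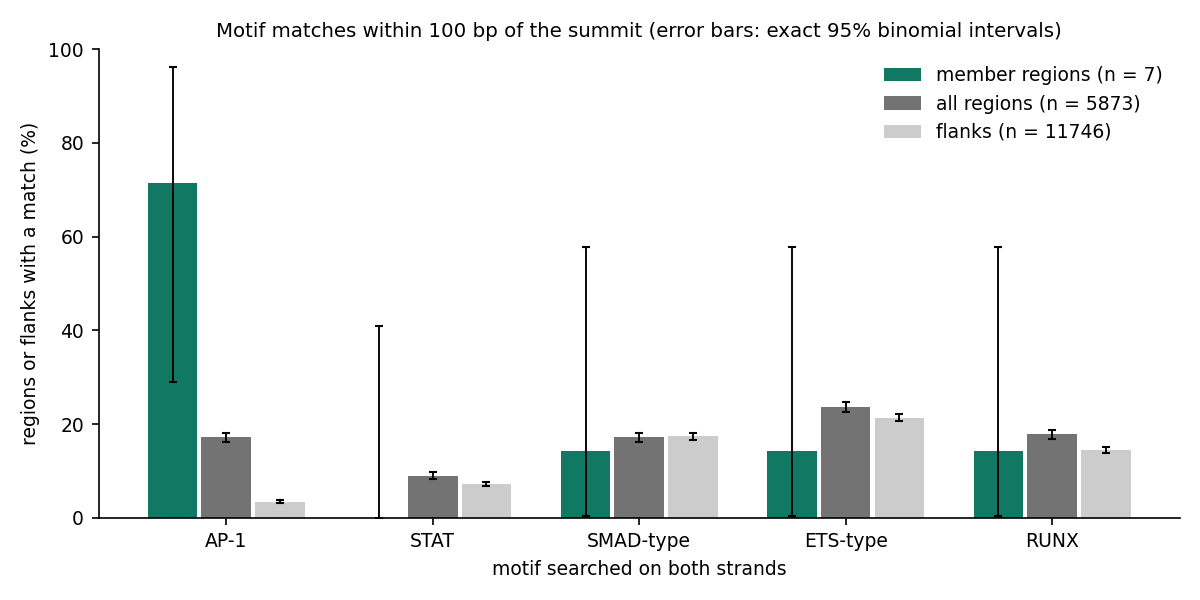
Percentage of member regions (n = 7), all merged regions (n = 5873) and flanks 2000 bp to either side (n = 11746) with a motif within 100 bp of the summit or flank centre, with exact 95% binomial intervals as error bars. AP-1 stands at 71.4% in the member regions, 17.2% in all regions and 3.41% in flanks, and the intervals of the member regions are wide for every motif.

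Beyond the 10 genes, a list of 53 other genes of the pathway was counted by the same rule. A peak was found at 18 of 53 (34.0%, beside 29.2% of coding genes), at 8 in Th9 (15.1%, beside 10.6%) and at 11 in Th17 (20.8%, beside 22.5%), shares close to the background. By class, genes with a peak numbered 4 of 15 ligands and activators of ligands, 5 of 12 receptors and co-receptors, 2 of 4 other SMADs (Smad6 in Th9 and Smad9 in Th17), 3 of 16 regulators of receptors and SMADs, and 4 of 6 signalling partners.

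The genes of that list with peaks in at least 2 libraries were Fkbp1a, Map3k7 and Tab2. Fkbp1a encodes FKBP12, a protein that holds the type I receptor inactive, and it had the strongest peak of the list, at chr2:151569550-151569827 in Th17 library 4 (fold enrichment 10.8, −log10 q 14.0) and at chr2:151569568-151569785 in Th17 library 3 (10.7 and 14.3). These overlap and lie 8.04 and 8.01 kb past the gene, where the nearest start site is that of Sdcbp2. Map3k7 encodes TAK1, a kinase on the SMAD-independent branch, and had separate Th9 peaks, at −1.51 kb from its start site in library 1 (−log10 q 5.46) and 35.9 kb past the gene in library 2 (−log10 q 2.85). Tab2 encodes an adaptor of TAK1 and had peaks in intron 1 that did not overlap. They lay 2.08 kb past its first start site in Th9 library 1 (−log10 q 3.82) and 1.56 kb past it in Th17 library 3 (−log10 q 3.32). From the next annotated start site of Tab2 they lay at −0.979 kb and −1.5 kb. The library 1 peak was thus in a promoter as defined above. No such pair of libraries was found at the 10 genes other than at Smad2, where the peaks were 31.8 kb apart.

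Marker genes of the 2 cell types were examined in the same way, as sites of binding and not of expression, so they give no direct check of cell identity. Of the Th9 markers, Il9 had 2 peaks and Irf4 1, all in Th9 library 2, and Spi1 had 0. Of the Th17 markers, Il17a and Il17f shared 1 site called in libraries 1, 3 and 4, and Il23r had 1 peak in Th9 library 1. The site between Il17a and Il17f was thus called in a Th9 library as well. Peaks were also found at both Treg markers (Foxp3 and Ikzf2) and both Th1 markers (Tbx21 and Ifng) in Th17 library 3, and at 1 of 2 Th2 markers (Il4) in libraries 1 and 3. Library 3 had the longest list, with a peak at 22.2% of all coding genes. The share was 9.44% in library 1, 1.74% in library 2 and 1.23% in library 4. The B cell marker Pax5 had 0. The part of other cells in the pathway gene peaks was not tested. Library 2, which had the Il9 peaks, had none at the 10 genes, and library 1, with 4 peaks at the 10 genes, had 0 at Il9.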

How the data were processed

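BATF ChIP-seq was analysed from 4 BATF libraries (2 Th9, 2 Th17), each with its own input and IgG library. Per the submitters' processing notes, reads were trimmed with Trim Galore 0.4.3, aligned with Bowtie2 to mm10, and peaks were called for each library with MACS2 2.1.0. The deposited lists give for every peak a fold enrichment (ratio) over the control, and −log10 p-value and −log10 q-value as the authors' peak caller wrote them. Each library has 3 lists, against input and IgG, input, or IgG. Which control a list used is known only from its name. Sequencing yielded roughly 15000000 reads per library per the study's methods. Exact totals for single libraries were not used.

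Genes were taken from curated RefSeq transcripts (annotation release 108) on the same assembly. A summit in the gene body or within 50 kb assigned a peak. Peaks sharing 1 bp were merged. Motifs were counted within 100 bp of summits with Python 3.11.15 and pysam 0.24.0, and exact intervals used scipy 1.17.1 and the permutation test numpy 2.4.6. The steps were checked on simulated data. All members were named. Of the other pathway genes, those with a peak in at least 2 of 4 libraries were named, or else the 6 with the highest −log10 q. Start-site neighbours of member peaks were named too. The lists were the 10 members, 53 pathway genes and 15 markers, some of which are not reported here. Members and lists were chosen with earlier results of these data known. Alternatives were the control, a −log10 q of 5, windows of 10 and 100 kb, nearest start sites, peaks in both libraries, equal list sizes, a reciprocal overlap of 50%, motif settings, each library left out and other gene models.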

Additional observations from a re-analysis of the deposited data

How the results depend on the processing

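Of 105 values recomputed for 8 results, 67 kept their direction or stayed within 1.5 times or within the main interval, among them all those for GENCODE M21 gene bodies (chosen after seeing the data), the reciprocal overlap of 50% and both motif settings. Shared regions stayed at 0 throughout. Lists called against input alone turned the difference in peaks per library (Th17 minus Th9) to 0.5, and lists against IgG alone left 0 genes with a peak in both cell types. Against input alone 1 gene had a peak in both cell types, but it was Smad3 and not Smad2. A −log10 q of at least 5 left 1 region and 1 gene in Th9, 0 regions and 0 genes in Th17, 0 genes in both, and an AP-1 site in 0.0% of the 1 region. With 10 kb windows Th17 had 1 region at 1 gene, and 0 genes had peaks in both cell types. With 100 kb windows Th17 had 6 regions at 5 genes, 3 genes had peaks in both, and the difference was 0.5. By nearest start site Th17 had 1 region at 1 gene. Requiring a call in both libraries, and equally keeping the top 199 peaks of each library, gave 0 regions and 0 genes in Th9, in Th17 and in both, and a difference of 0.0; no AP-1 share could be given there.

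Leaving out each library in turn moved Th9 regions and Th9 genes each between 0 and 4, Th17 regions between 0 and 3, Th17 genes between 0 and 2, and genes in both between 0 and 1. The AP-1 share ranged from 50% to 100% and the difference from −2.5 to 1.5. The counts of 0 came without library 1 in Th9 and without library 3 in Th17. No paired analysis was possible because no number occurs in both groups: Th9 has libraries 1 and 2, Th17 has 3 and 4.

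Each cell type's counts at these genes rest on 1 library, and 6 of the 7 peaks have a −log10 q below 5. Depth is known only as roughly 15000000 reads for each library, and list sizes differed widely within each cell type. Where an alternative changed a value beyond what its fewer peaks, libraries or bases account for by construction, the cause was not tested.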
